A study of Rattus norvegicus with 12 samples.

Results

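The genes described here are 10 genes of brain endothelial identity and of the junctions between endothelial cells: Cldn5, Ocln, Tjp1, Cdh5, Pecam1, Emcn, Vwf, Apold1, Tmem252 and Esam. They were chosen by name, as the rows of the deposited count table that carry these symbols, and they are 10 of its 17337 rows. The members, and the other gene lists below, were chosen with earlier results of these data known. Their counts beside the share of all genes are therefore descriptions and not tests of the lists. All 10 passed the filter on low counts. RNA was sequenced from the brains (middle brain, by the design text) of 12 male Sprague-Dawley rats of postnatal day 60, in 4 groups of 3. The AAV-VEGFC rats had bile duct ligation (BDL), with a modelling time of 4 weeks, and received an adeno-associated virus (AAV) named for vascular endothelial growth factor C. The AAV-GFP rats had the same ligation and received a virus named for green fluorescent protein. The BDL rats had the ligation without a vector, and the sham rats served as controls. Ligation blocks the outflow of bile and is used as a model of cirrhosis with hepatic encephalopathy. Both vectors were given in 20 µl into the cisterna magna, the fluid-filled space below the cerebellum. The sources used here do not give the promoter of the vectors, the cells they entered or any sham injection. No label names a batch, so vector, injection and a possible batch of libraries cannot be told apart where a vector group is set against a group without one.

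Endothelial cells of the brain form the blood-brain barrier. Tight junctions, built from claudins, occludin and scaffold proteins, seal the gaps between neighbouring cells, and adherens junctions and adhesion molecules hold the cells together. The transcripts measured here come from whole tissue, in which endothelial cells are a minority beside neurons and glia, so fewer cells of a type and less RNA per cell cannot be told apart. Every member was above 0 in every library. Neurons, astrocytes and oligodendrocytes were each represented by 4 of 4 markers above 0 in every library. Of the markers of midbrain dopamine and serotonin neurons, Th was at 0.652 to 1.70 CPM and Tph2 at 0.502 to 1.55 CPM, counts scaled to library size, and the dopamine transporter Slc6a3 was at 0 in 10 of the 12 libraries, so the defining markers of these midbrain neurons were at or near 0 in tissue labelled middle brain.

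Promoter sequences are shown for Apold1 and Tmem252, the members with the widest range between groups, and for Cldn5, the main claudin of the brain barrier. The RefSeq promoter table of the GRCr8 assembly held 6 of the 10 members: Cldn5, Ocln, Tjp1, Emcn, Apold1 and Tmem252. Cdh5, Pecam1, Vwf and Esam had no entry. Each sequence is the 250 bases before the annotated transcript start, 5′ to 3′ on the strand of the gene, with motif matches in capitals. Apold1 lies at chr4:169552349-169552598 on the plus strand, Tmem252 at chr1:231743146-231743395 on the plus strand, and Cldn5 at chr11:95718599-95718848 on the minus strand. The counts were made on rn6, and no coordinate was converted between builds.
Apold1: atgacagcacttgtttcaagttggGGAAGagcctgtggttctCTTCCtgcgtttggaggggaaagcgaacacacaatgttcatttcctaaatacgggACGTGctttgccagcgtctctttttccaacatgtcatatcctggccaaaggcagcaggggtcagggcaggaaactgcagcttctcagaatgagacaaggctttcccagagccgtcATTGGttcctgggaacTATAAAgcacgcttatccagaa
Tmem252: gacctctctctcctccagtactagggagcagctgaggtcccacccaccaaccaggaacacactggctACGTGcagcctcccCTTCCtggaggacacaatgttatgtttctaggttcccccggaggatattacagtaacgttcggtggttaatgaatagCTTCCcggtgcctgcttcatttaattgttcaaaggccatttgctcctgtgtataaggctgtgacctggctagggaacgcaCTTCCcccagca
Cldn5: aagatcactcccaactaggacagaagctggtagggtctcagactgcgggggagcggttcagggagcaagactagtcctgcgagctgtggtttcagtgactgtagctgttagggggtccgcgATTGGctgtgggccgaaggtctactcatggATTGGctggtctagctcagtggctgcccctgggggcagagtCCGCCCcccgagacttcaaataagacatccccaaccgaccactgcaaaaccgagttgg
The letters searched, on both strands, were the TATA box TATAAA, the CCAAT box CCAAT, the GC box GGGCGG, the ETS core GGAAG, the AP-1 site TGANTCA, the cyclic AMP response element TGACGTCA, the hypoxia core ACGTG and the CArG box. ETS factors are the family that includes the endothelial factor Erg. The Apold1 promoter held a TATA box 22 bases before the start, a CCAAT box 38 bases before it, a hypoxia core at 153 bases and ETS cores at 208 and 226 bases. The Tmem252 promoter held ETS cores at 12, 92 and 169 bases and a hypoxia core at 183 bases. The Cldn5 promoter held CCAAT boxes at 99 and 129 bases and a GC box at 58 bases. No match overlapped another, and in these 3 windows no letters of the AP-1 site, the cyclic AMP response element or the CArG box were found. Among 33469 rat promoter windows of the same length, 12.9% held the TATA box, 34% the CCAAT box, 30.5% the GC box, 63.3% the ETS core, 16.6% the hypoxia core, 6.34% the AP-1 site, 1.59% the cyclic AMP response element and 1.5% the CArG box. A match is a description of the letters and not of binding.

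**Figure D1:**
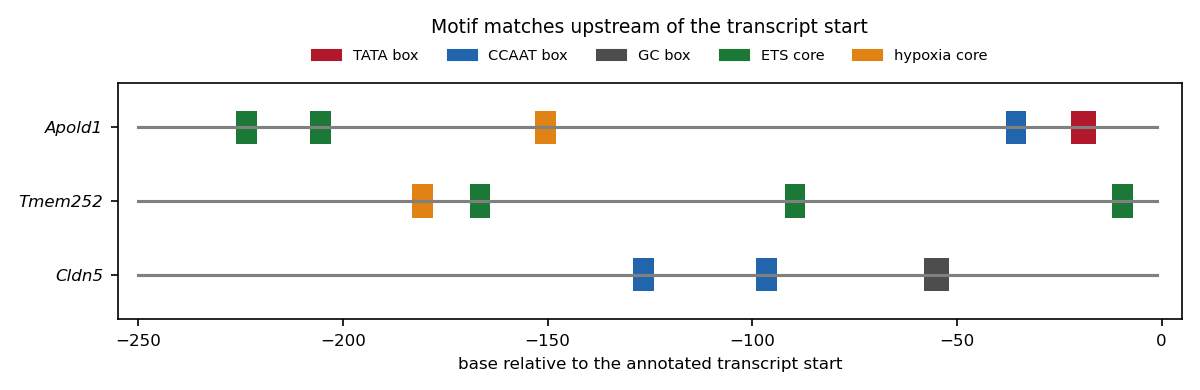
Positions of the motif matches in the 250 bases before the annotated transcript start of Apold1, Tmem252 and Cldn5. The x axis is the base relative to the start and coloured boxes are matches on either strand. The TATA box appears in Apold1, 22 bases before its start, and the GC box in Cldn5, 58 bases before its start.

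The libraries held 40296297 to 51669067 counts. Values are CPM, counts scaled to library size with TMM factors, and not per gene length, so they compare libraries and not genes. Tests are from the edgeR quasi-likelihood fit over 12850 genes, and a gene was called at a Benjamini-Hochberg adjusted p under 0.05. Apart from the design text, which gives 3 rats a group, no label links libraries to animals, so the p-values measure the spread between these libraries. Rn18s, the ribosomal RNA, lay between 4245 and 11883 CPM in the 6 vector libraries and between 1357 and 2989 CPM in the 6 others, and the first principal component, with 28.2% of the variance, separated the same 2 sets of libraries. AAV-VEGFC 1 had 2.83% of its counts in ribosomal protein genes, against at most 1.57% in the other libraries. Its summed markers were at 4104 CPM for neurons, below the 5006 to 6572 CPM of the other libraries, at 3972 CPM for astrocytes, above their 2263 to 3494 CPM, and at 17640 CPM for oligodendrocytes, above their 10016 to 13242 CPM. Sham 2 stood apart on choroid plexus markers, AAV-GFP 1 on hypothalamus and pituitary markers, and AAV-VEGFC 1 on its ribosomal protein share. Their part in the results on the members is measured by the member counts without these 3 libraries. AAV-VEGFC 3 was also high on hypothalamus and pituitary markers, at 57.4 CPM beside 85.1 CPM in AAV-GFP 1. It stayed in those counts and was left out only on its own. The vector groups are both compared with the same BDL libraries, and AAV-VEGFC and BDL with the same sham libraries.

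Of the members, 6 were higher in both vector groups than in ligated brains without a vector: Cldn5, Esam, Pecam1, Emcn, Apold1 and Tmem252. Apold1 and Tmem252 had the widest changes, Cldn5 was 2.06-fold higher in AAV-VEGFC and 1.88-fold higher in AAV-GFP, and Esam, Pecam1 and Emcn were 1.57-fold to 1.67-fold higher. In AAV-GFP against BDL the test called 6 of 10 members higher and 0 lower, where 6.19% of all tested genes were called in either direction and 0.988% were called higher and 5.2% lower. In AAV-VEGFC against BDL the test called 6 of 10 higher and 0 lower, against 9.93% of all genes in either direction and 2.91% called higher and 7.02% lower. As the members were chosen with earlier results of these data known, these shares describe them and do not test the list. The median log2 fold change of the members was 0.65 in AAV-GFP against BDL, beside 0.01 over all genes tested, and 0.69 in AAV-VEGFC against BDL, beside 0.0045 over all genes tested. Without the 3 libraries that stood apart, 7 members were called in each of these comparisons, 6 higher and Tjp1 lower. More genes of all kinds were called there: 3646 in AAV-GFP and 3123 in AAV-VEGFC against BDL, beside 795 and 1276 in the main fit. In a fit of the compared groups alone AAV-VEGFC against BDL had 3 members called, Cldn5, Apold1 and Tmem252. Fewer genes of all kinds were called in that fit, 330, of which 29 were higher and 301 lower. In AAV-GFP against BDL the count was 4 without BDL 1, BDL 3, AAV-GFP 2 or AAV-GFP 3. Leaving out 1 library gave 386 to 859 genes called in that comparison.

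**Figure D2:**
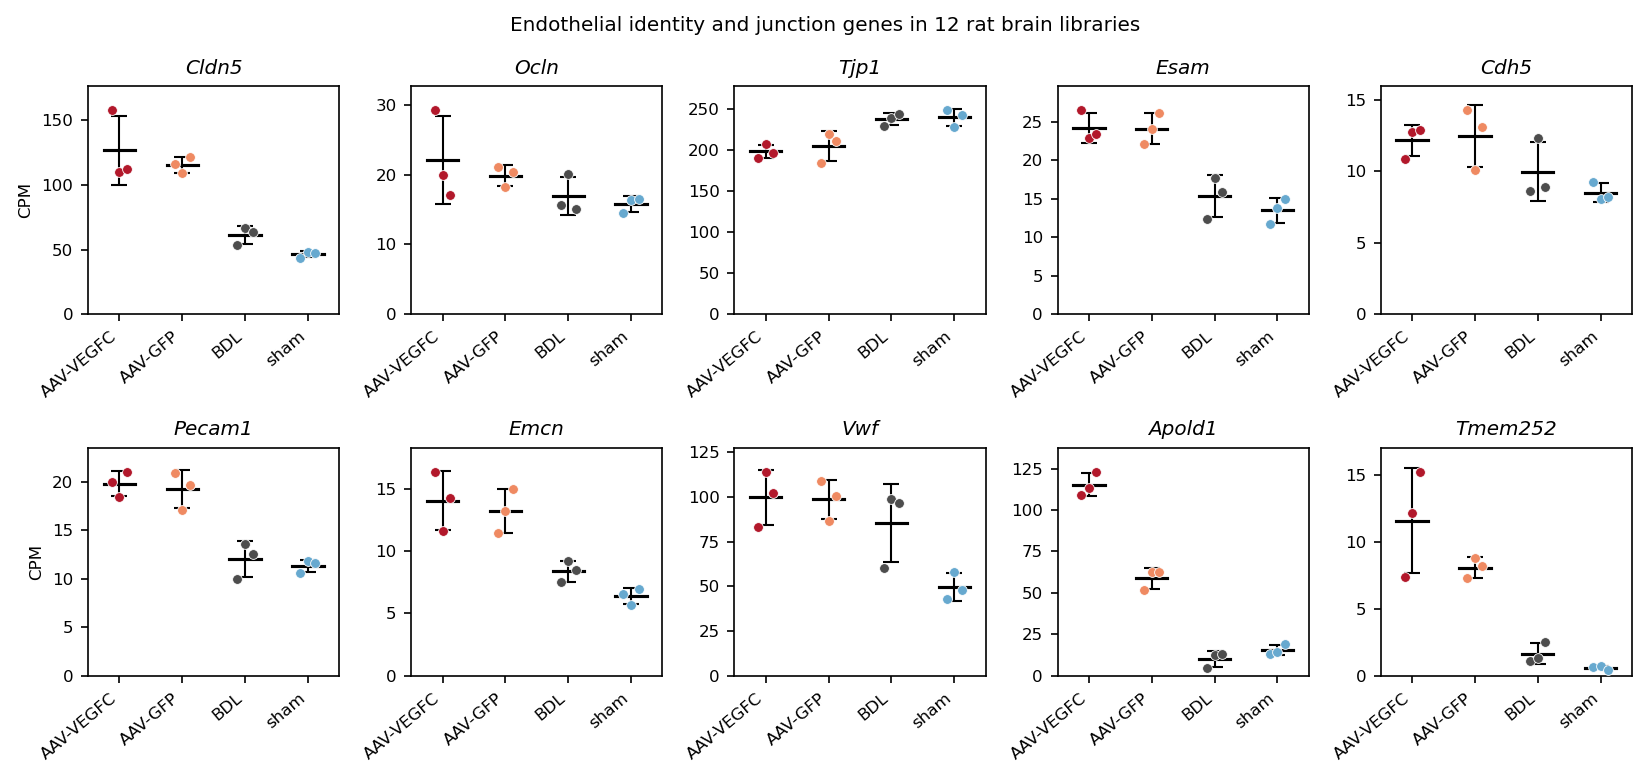
CPM of each of the 10 members in every library, by group on the x axis from AAV-VEGFC to sham, with horizontal bars at the group means of 3 libraries, vertical bars for 1 SD and each y axis starting at 0. Apold1 and Tmem252 show the widest separation of the vector groups, and Tjp1 is the member whose vector libraries lie below all BDL and sham libraries.

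Cldn5, the claudin that dominates the tight junctions of brain endothelium, had 158, 110.1 and 113 CPM in AAV-VEGFC libraries, 116, 109 and 121 CPM in AAV-GFP libraries, 53.6, 66.7 and 63.9 CPM in BDL libraries and 43.7, 48.1 and 47.3 CPM in sham libraries. Every vector library lay above every BDL library, and every BDL library above every sham library. The highest value was that of AAV-VEGFC 1, the library with the high ribosomal protein share and the high astrocyte and oligodendrocyte marker sums. Without it the log2 fold change of Cldn5 in AAV-VEGFC against BDL was 0.86 (edgeR, adjusted p = 0.000226). The log2 fold change was 1.05 ± 0.13 (SE) in AAV-VEGFC against BDL (edgeR, adjusted p = 0.000815) and 0.91 ± 0.13 in AAV-GFP against BDL (edgeR, adjusted p = 0.0021). Both calls held in each of 14 alternative settings and leave-one-out fits. Against sham, AAV-VEGFC was higher by 1.45 ± 0.14 on the log2 scale (edgeR, adjusted p = 8.68e-05), a 2.73-fold difference. BDL without a vector differed from sham by 0.41 ± 0.13 and was not called (edgeR, adjusted p = 0.607).

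Ocln codes for occludin, a membrane protein of tight junctions also made outside endothelium. It had 29.2, 19.9 and 17.1 CPM in AAV-VEGFC libraries, 21.1, 18.2 and 20.3 CPM in AAV-GFP libraries, 15.6, 20.1 and 15.05 CPM in BDL libraries and 14.5, 16.3 and 16.5 CPM in sham libraries. The vector groups overlapped BDL, and AAV-VEGFC 1 again held the highest value. Ocln was not called in any comparison. Its log2 fold change was 0.38 ± 0.18 in AAV-VEGFC against BDL (edgeR, adjusted p = 0.182; 0.13 without AAV-VEGFC 1), 0.23 ± 0.18 in AAV-GFP against BDL (edgeR, adjusted p = 0.509) and 0.48 ± 0.18 in AAV-VEGFC against sham (edgeR, adjusted p = 0.0807). The last of these was called without AAV-VEGFC 3 (edgeR, adjusted p = 0.0285) and in DESeq2's own test (adjusted p = 0.0459).

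Tjp1 codes for the scaffold ZO-1, which ties claudins and occludin to the actin skeleton and is made by many cell types. It had 191, 207 and 197 CPM in AAV-VEGFC libraries, 184, 219.5 and 210.3 CPM in AAV-GFP libraries, 229, 239 and 243 CPM in BDL libraries and 248, 228 and 243 CPM in sham libraries. All 6 vector libraries lay below all 6 libraries without a vector, the opposite side from Cldn5. In AAV-VEGFC against sham the log2 fold change was -0.27 ± 0.08 (edgeR, adjusted p = 0.0322). That call was lost without sham 1 (0.114), sham 2 (0.0514), sham 3 (0.0949) or AAV-VEGFC 3 (0.0553), and in a fit of the compared groups alone (0.108), all adjusted p from edgeR. In AAV-VEGFC against BDL the value was -0.26 ± 0.08 (edgeR, adjusted p = 0.0548), and in AAV-GFP against BDL -0.21 ± 0.08 (edgeR, adjusted p = 0.14), neither called. AAV-VEGFC against BDL was called lower in 5 of 14 alternatives: DESeq2's own test (0.0126), limma voom (0.0184), the filter at 1 CPM (0.0481), without AAV-VEGFC 2 (0.0441) and without the 3 libraries that stood apart (0.00738), all adjusted p. AAV-GFP against BDL was called lower in 2 of 14, limma voom (0.0145) and without those 3 libraries (0.0377).

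Esam is an adhesion molecule of endothelial junctions, also carried by platelets. It had 26.5, 22.8 and 23.4 CPM in AAV-VEGFC libraries, 22.1, 24.003 and 26.1 CPM in AAV-GFP libraries, 12.4, 17.7 and 15.9 CPM in BDL libraries and 11.7, 13.8 and 14.96 CPM in sham libraries. The vector groups lay above BDL without overlap and covered nearly the same range as each other. The log2 fold change was 0.66 ± 0.14 in AAV-VEGFC against BDL (edgeR, adjusted p = 0.0124) and 0.65 ± 0.14 in AAV-GFP against BDL (edgeR, adjusted p = 0.0172). The AAV-GFP call was lost without BDL 1 (0.0652), BDL 3 (0.0528), AAV-GFP 2 (0.0579) or AAV-GFP 3 (0.0777), and the AAV-VEGFC call in a fit of the compared groups alone (0.0797), all adjusted p from edgeR.

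Cdh5 codes for VE-cadherin, the cadherin of endothelial adherens junctions. It had 10.9, 12.7 and 12.9 CPM in AAV-VEGFC libraries, 14.3, 10.1 and 13.1 CPM in AAV-GFP libraries, 8.65, 12.3 and 8.92 CPM in BDL libraries and 9.26, 8.07 and 8.17 CPM in sham libraries. BDL 2 lay inside the range of both vector groups, and the AAV-VEGFC libraries lay above the sham libraries. The log2 fold change was 0.29 ± 0.16 in AAV-VEGFC against BDL and 0.32 ± 0.16 in AAV-GFP against BDL (edgeR, adjusted p = 0.269 and 0.302). In AAV-VEGFC against sham it was 0.52 ± 0.17, just short of the threshold (edgeR, adjusted p = 0.0502). It was called in 5 of 14 alternatives: DESeq2 size factors (0.0489), DESeq2's own test (0.0212), limma voom (0.0244), the filter at 1 CPM (0.0472) and without AAV-VEGFC 1 (0.0361), all adjusted p.

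Pecam1, or CD31, is an adhesion molecule at the contacts of endothelial cells, also found on platelets and leukocytes. It had 19.98, 18.4 and 20.98 CPM in AAV-VEGFC libraries, 20.9, 17.1 and 19.7 CPM in AAV-GFP libraries, 9.93, 13.5 and 12.5 CPM in BDL libraries and 10.6, 11.8 and 11.6 CPM in sham libraries. The vector libraries lay above all others, and BDL and sham covered the same range. The log2 fold change was 0.72 ± 0.12 in AAV-VEGFC against BDL (edgeR, adjusted p = 0.00407), 0.68 ± 0.12 in AAV-GFP against BDL (edgeR, adjusted p = 0.00712) and 0.08 ± 0.12 in BDL against sham (edgeR, adjusted p = 0.9999). The AAV-VEGFC call against BDL was lost in a fit of the compared groups alone (edgeR, adjusted p = 0.052).

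Emcn codes for endomucin, a surface sialomucin of venous and capillary endothelium. It had 16.3, 11.6 and 14.2 CPM in AAV-VEGFC libraries, 11.4, 13.2 and 14.99 CPM in AAV-GFP libraries, 7.48, 9.18 and 8.48 CPM in BDL libraries and 6.57, 5.71 and 6.96 CPM in sham libraries. As with Cldn5, the vector libraries lay above BDL and BDL above sham. The log2 fold change was 0.74 ± 0.15 in AAV-VEGFC against BDL (edgeR, adjusted p = 0.0112), 0.66 ± 0.15 in AAV-GFP against BDL (edgeR, adjusted p = 0.0271) and 1.13 ± 0.15 in AAV-VEGFC against sham (edgeR, adjusted p = 0.0008). The AAV-GFP call was lost without BDL 1 (0.118), BDL 2 (0.0508), BDL 3 (0.0855), AAV-GFP 2 (0.0821) or AAV-GFP 3 (0.12), and the AAV-VEGFC call against BDL without BDL 1 (0.0589) or in a fit of the compared groups alone (0.0688), all adjusted p from edgeR.

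Vwf codes for von Willebrand factor, which endothelial cells store and release in coagulation. It had 83.2, 114 and 102 CPM in AAV-VEGFC libraries, 109, 86.8 and 100.3 CPM in AAV-GFP libraries, 60.4, 99.0 and 96.6 CPM in BDL libraries and 42.7, 58.2 and 47.9 CPM in sham libraries. BDL 2 and BDL 3 lay within the range of the vector groups, and all 9 ligated libraries lay above the sham libraries. Vwf was not called in either vector group against BDL, with log2 fold changes of 0.23 ± 0.19 for AAV-VEGFC and 0.21 ± 0.19 for AAV-GFP (edgeR, adjusted p = 0.466 and 0.581). In AAV-VEGFC against sham it was higher by 1.01 ± 0.19 on the log2 scale (edgeR, adjusted p = 0.00532).

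Apold1 codes for an early-response protein of vascular endothelium, described in rodents. It had 109, 113 and 123 CPM in AAV-VEGFC libraries, 51.6, 62.6 and 62.4 CPM in AAV-GFP libraries, 4.64, 12.6 and 13.4 CPM in BDL libraries and 13.3, 14.1 and 19.1 CPM in sham libraries. The vector groups did not overlap each other or the groups without a vector, while BDL overlapped sham and held the lowest library. AAV-VEGFC was 11.3-fold above BDL (log2 3.49 ± 0.32, edgeR adjusted p = 8.5e-05), and AAV-GFP was 5.76-fold above BDL (log2 2.52 ± 0.31, edgeR adjusted p = 0.000669). Against sham, AAV-VEGFC was 7.43-fold higher (edgeR, adjusted p = 0.000205). Each of these calls held in all 14 alternative settings and leave-one-out fits. BDL against sham gave a log2 fold change of -0.60 ± 0.30 (edgeR, adjusted p = 0.904), with a 95% interval from -1.26 to 0.06. Without BDL 1, the library at 4.64 CPM, that log2 fold change was -0.25.

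Tmem252 codes for a transmembrane protein. Its read counts were low, with 293, 608 and 692 reads in AAV-VEGFC libraries, 348, 398 and 412 in AAV-GFP libraries, 49, 62 and 126 in BDL libraries and 34, 34 and 19 in sham libraries. These correspond to 7.39, 12.1 and 15.2 CPM in AAV-VEGFC libraries, 7.26, 8.80 and 8.15 CPM in AAV-GFP libraries, 1.06, 1.32 and 2.53 CPM in BDL libraries and 0.665, 0.693 and 0.454 CPM in sham libraries. Vector, BDL and sham libraries formed 3 separate ranges in that order, and AAV-VEGFC overlapped AAV-GFP. AAV-VEGFC was 7.05-fold above BDL (edgeR, adjusted p = 0.000608) and 18.996-fold above sham (edgeR, adjusted p = 6.05e-05), and AAV-GFP was 4.91-fold above BDL (edgeR, adjusted p = 0.0021). These calls held in all 14 alternative settings and leave-one-out fits.

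**Figure D3:**
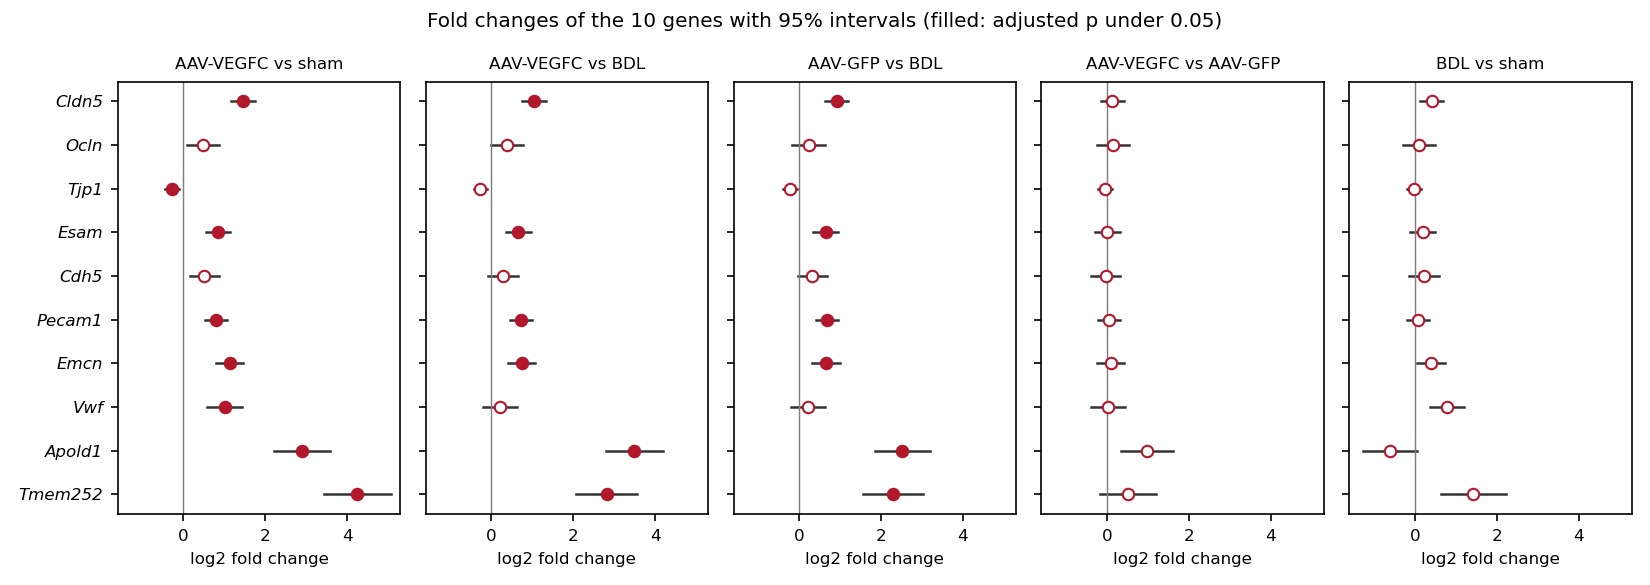
Log2 fold change of each of the 10 members in 5 comparisons, one panel per comparison, with bars for 95% intervals and filled points for genes called by edgeR. Apold1, at 3.49 in AAV-VEGFC against BDL, and Tmem252, at 2.82, lie farthest right in that panel, and Tjp1 lies left of 0 in both vector comparisons with BDL.

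AAV-VEGFC against AAV-GFP asks what the growth factor vector changed beyond a vector with a marker protein. The test called 0 of 10 members (edgeR), where 0.00778% of all genes, a single gene, were called. At an unadjusted p under 0.05 there was 1 member, Apold1, beside 4.37% of all genes, and DESeq2's own test and limma voom with quality weights also called 0. Apold1 was 1.96-fold higher in AAV-VEGFC, with a log2 fold change of 0.97 ± 0.29 and a 95% interval from 0.34 to 1.60 (edgeR, unadjusted p = 0.00614, adjusted p = 0.948). Its groups did not overlap, which held in this direction for 3.29% of all genes, and its adjusted p ranged from 0.0567 to 0.99999 over the 14 alternative settings and leave-one-out fits. Tmem252 differed by 0.52 ± 0.31, with an interval from -0.16 to 1.21. The intervals of the other 8 members held 0: they ran from -0.16 to 0.42 for Cldn5, from -0.24 to 0.54 for Ocln, from -0.22 to 0.12 for Tjp1, from -0.29 to 0.31 for Esam, from -0.40 to 0.32 for Cdh5, from -0.23 to 0.31 for Pecam1, from -0.24 to 0.42 for Emcn and from -0.40 to 0.43 for Vwf. The median of the members was 0.06, beside 0.01 over all genes. Without the 3 libraries that stood apart the count was again 0.

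In BDL against sham, which asks what ligation alone changed, the edgeR test called 0 of 10 members, where 0.109% of all genes were called. At an unadjusted p under 0.05 there were 4 members, Cldn5, Emcn, Vwf and Tmem252, beside 5.9% of all genes. In the same 4 members every BDL library lay above every sham library, against 12.6% of all genes that lay higher without overlap. The log2 fold change was 0.78 ± 0.19 for Vwf (edgeR, adjusted p = 0.337), 1.43 ± 0.36 for Tmem252 (edgeR, adjusted p = 0.348) and 0.39 ± 0.15 for Emcn (edgeR, adjusted p = 0.792). DESeq2's own test called 2 of them, Vwf (adjusted p = 0.017) and Tmem252 (adjusted p = 0.0221). Limma voom with quality weights called Cldn5 (adjusted p = 0.0236) and Vwf (adjusted p = 0.0297). An edgeR fit of the compared groups alone called Cldn5 (adjusted p = 0.0439). These 3 settings also called more genes of all kinds, 103, 347 and 332 in the same order, beside 14 in the main fit. The remaining members had log2 fold changes from -0.60 for Apold1 to 0.23 for Cdh5. The median of the members was 0.21, beside 0.01 over all genes, and without the 3 libraries that stood apart the edgeR count was again 0.

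AAV-VEGFC against sham combines ligation and vector, and here the test called 7 of 10 members higher and 1 lower, where 7.98% of all genes were called higher, 10.6% lower and 18.6% in either direction. The 7 were Cldn5, Esam, Pecam1, Emcn, Vwf, Apold1 and Tmem252, and the lower one was Tjp1. For Esam the log2 fold change was 0.85 ± 0.14 (edgeR, adjusted p = 0.00238) and for Pecam1 0.80 ± 0.12 (edgeR, adjusted p = 0.00167). The groups did not overlap in any of the 10 members, against 39.1% of all genes. The median of the members was 0.93, beside 0.01 over all genes. Without the 3 libraries that stood apart 8 members were called, 7 higher and 1 lower.

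Because Pecam1 rose with the other members, each member was also divided by Pecam1 within its library, a ratio that does not depend on library scaling. It was chosen after the values were seen and carries no test. Pecam1 was itself called higher in both vector groups than in BDL. A member that rose less than Pecam1 there therefore has a lower ratio than in BDL. Apold1 per Pecam1 was 5.48 to 6.17 in AAV-VEGFC, 2.47 to 3.67 in AAV-GFP, 0.467 to 1.07 in BDL and 1.201 to 1.65 in sham libraries. BDL thus lay below sham on this ratio without overlap, where the CPM ranges overlapped. Tmem252 per Pecam1 was 0.370 to 0.725 in AAV-VEGFC, 0.347 to 0.516 in AAV-GFP, 0.0975 to 0.203 in BDL and 0.0392 to 0.0627 in sham libraries.

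Cldn5 per Pecam1 was 5.36 to 7.89 in AAV-VEGFC, 5.57 to 6.39 in AAV-GFP, 4.93 to 5.40 in BDL and 4.08 to 4.13 in sham libraries, so the ligated groups stayed above sham after division. Vwf per Pecam1 was 4.17 to 6.20 in AAV-VEGFC, 5.08 to 5.1996 in AAV-GFP, 6.09 to 7.73 in BDL and 4.03 to 4.94 in sham libraries, with BDL highest on average. Esam per Pecam1 averaged 1.23, 1.26, 1.28 and 1.19 in AAV-VEGFC, AAV-GFP, BDL and sham libraries, with ranges that overlapped in all 4 groups. Emcn per Pecam1 was 0.630 to 0.818 in AAV-VEGFC, 0.546 to 0.773 in AAV-GFP, 0.678 to 0.753 in BDL and 0.484 to 0.620 in sham libraries.

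On this ratio Cdh5, Ocln, Vwf and Tjp1 lay lower in AAV-GFP than in BDL without overlap, and Cdh5 and Tjp1 also in AAV-VEGFC. For Cdh5, Ocln and Vwf this reflects the rise of Pecam1 and not a fall in CPM. Their log2 fold changes against BDL in CPM were 0.32, 0.23 and 0.21 in AAV-GFP, and 0.29, 0.38 and 0.23 in AAV-VEGFC, none called. Tjp1 lay below BDL in CPM as well. Cdh5 per Pecam1 was 0.545 to 0.693 in AAV-VEGFC and 0.589 to 0.683 in AAV-GFP, against 0.714 to 0.914 in BDL and 0.685 to 0.875 in sham libraries. Ocln per Pecam1 was 0.816 to 1.46 in AAV-VEGFC and 1.01 to 1.06 in AAV-GFP, against 1.204 to 1.57 in BDL and 1.37 to 1.43 in sham libraries. Tjp1 per Pecam1 was 9.37 to 11.3 in AAV-VEGFC and 8.81 to 12.9 in AAV-GFP, against 17.7 to 23.1 in BDL and 19.3 to 23.4 in sham libraries.

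**Figure D4:**
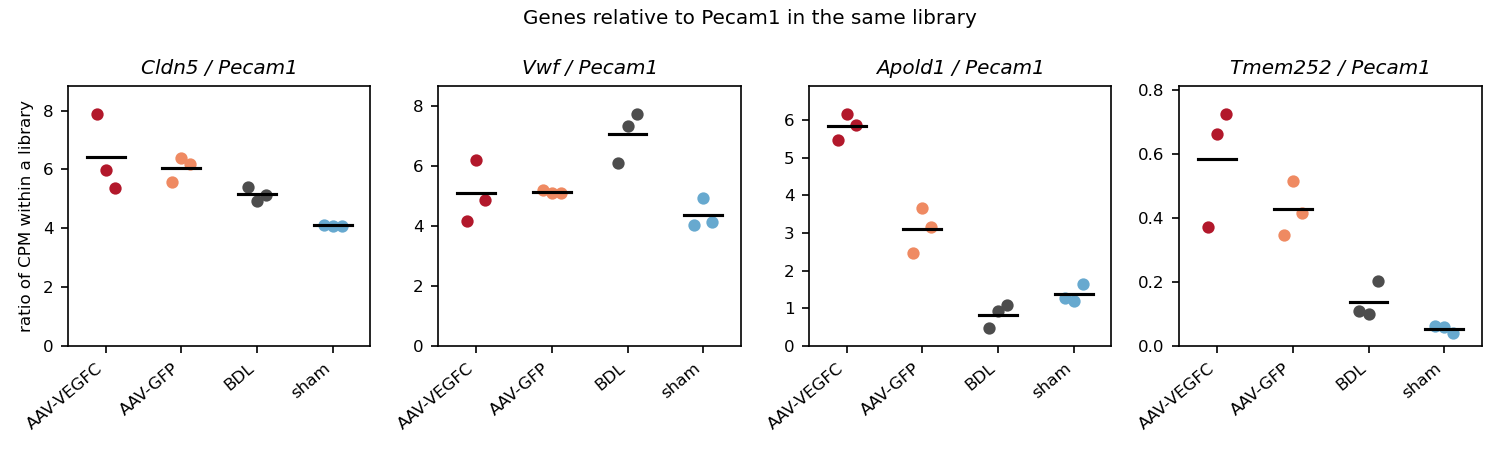
Ratio of 4 members to Pecam1 within each library, by group on the x axis from AAV-VEGFC to sham, with bars at the means of 3 libraries and each y axis starting at 0. The Apold1 ratio in AAV-VEGFC, 5.48 to 6.17, lies above that of every other library, and the Vwf ratio is highest on average in BDL.

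Likeness of pattern was measured as the mean absolute difference of log2 CPM over the 12 libraries, each gene centred on its own mean, so that 0 is an identical pattern. It is a description over libraries that share group and depth. Among the members, Esam and Pecam1 were closest, at 0.102, followed by Emcn and Esam at 0.126 and Cldn5 and Emcn at 0.16. Apold1 and Tmem252 were 0.713 apart. Among 11223 genes, the patterns most like Cldn5 were those of Fam110d at 0.131, Wfdc1 at 0.139 and Cmc1 at 0.144, where the mean absolute deviation of Cldn5 itself was 0.587. For Apold1, whose own deviation was 1.39, they were Ifit3 at 0.458, Rn18s at 0.565 and Atf3 at 0.594. For Tmem252, whose own deviation was 1.62, they were Rn18s at 0.62, Ifit3 at 0.698 and Alas2 at 0.71. The 3 nearest to Tmem252 were farther off than any named for Cldn5, and Rn18s was among the nearest of both Apold1 and Tmem252.

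Among 18 other genes of endothelial identity that were tested, of 21 listed, 5 were called higher and 0 lower in AAV-VEGFC against BDL, and 4 higher and 0 lower in AAV-GFP against BDL. Over all genes tested, 2.91% were called higher in AAV-VEGFC and 0.988% in AAV-GFP. The list's median log2 fold change was 0.40 in AAV-VEGFC against BDL and 0.41 in AAV-GFP against BDL, beside 0.0045 and 0.0074 over all genes. Icam2, an adhesion molecule, differed by 0.99 ± 0.15 in AAV-VEGFC and by 0.81 ± 0.15 in AAV-GFP (edgeR, adjusted p = 0.00238 and 0.00933). Tek, the angiopoietin receptor, differed by 0.61 ± 0.10 in AAV-VEGFC and by 0.60 ± 0.10 in AAV-GFP (edgeR, adjusted p = 0.00376 and 0.00525). Podxl, a sialomucin, differed by 0.54 ± 0.12 in AAV-VEGFC and by 0.51 ± 0.12 in AAV-GFP (edgeR, adjusted p = 0.016 and 0.0275). Flt1, a VEGF receptor, differed by 0.44 ± 0.10 in AAV-VEGFC (edgeR, adjusted p = 0.0156), and in AAV-GFP its value of 0.35 ± 0.09 was not called (edgeR, adjusted p = 0.0521). Against sham, AAV-VEGFC had 8 higher and 0 lower, led by Flt1 (0.60 ± 0.10), Podxl (0.73 ± 0.12) and Icam2 (0.83 ± 0.15), with edgeR adjusted p of 0.00211, 0.00252 and 0.00458. The share of all genes called higher there was 7.98%. In BDL against sham edgeR called 0, with 2 at an unadjusted p under 0.05, beside 5.9% of all genes, and the smallest p was that of Eng, a TGF-beta co-receptor, at -0.43 ± 0.13 (edgeR, adjusted p = 0.519). In AAV-VEGFC against AAV-GFP edgeR also called 0, with 0 at an unadjusted p under 0.05, and Cd34 had the smallest p (0.28 ± 0.19, edgeR adjusted p = 0.948).

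Of 15 other junction genes tested, of 19 listed, 1 was called higher in AAV-VEGFC against BDL, Lsr, which codes for angulin-1 of the contacts where 3 cells meet (0.85 ± 0.16, edgeR adjusted p = 0.00821). Of all genes tested, 2.91% were called higher in that comparison and 9.93% in either direction. In AAV-GFP against BDL edgeR called 0, with 4 of 15 at an unadjusted p under 0.05, beside 20.7% of all genes, and Cgnl1, a paracingulin scaffold, had the smallest p (0.35 ± 0.11, edgeR adjusted p = 0.0814). Against sham, AAV-VEGFC had 2 higher, Lsr (0.79 ± 0.16, edgeR adjusted p = 0.00829) and F11r, the junctional adhesion molecule A (0.90 ± 0.24, edgeR adjusted p = 0.0248). The shares of all genes called there were 7.98% higher and 18.6% in either direction. In BDL against sham edgeR called 0, with 0 at an unadjusted p under 0.05. In AAV-VEGFC against AAV-GFP edgeR also called 0, and the smallest p was that of Lsr, at 0.40 ± 0.16 (edgeR, adjusted p = 0.948).

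Wnt signalling through beta-catenin maintains the barrier programme of brain endothelium. Of 13 tested genes of this programme, of 17 listed, 1 was called, and lower, in each vector group against BDL. It was Reck, a membrane protein that presents Wnt7 ligands to the receptor, at -0.72 ± 0.09 in AAV-VEGFC and -0.51 ± 0.09 in AAV-GFP (edgeR, adjusted p = 0.000621 and 0.00518). Of all genes tested, 7.02% were called lower in AAV-VEGFC and 5.2% in AAV-GFP, so 1 of 13 is near the general share. Reck averaged 12.9 ± 1.08 CPM in AAV-VEGFC, 14.9 ± 0.692 CPM in AAV-GFP, 21.2 ± 1.13 CPM in BDL and 19.3 ± 0.876 CPM in sham libraries (SD, n = 3 each), so it lay on the side of Tjp1 and not of Cldn5. Against sham, AAV-VEGFC had 1 lower, Reck (-0.58 ± 0.09, edgeR adjusted p = 0.00142), and 1 higher, Fzd4, a Wnt and Norrin receptor (0.30 ± 0.09, edgeR adjusted p = 0.0399). The shares of all genes there were 10.6% lower and 7.98% higher. The smallest p was that of Nkd1 in BDL against sham (-0.27 ± 0.14) and of the transcription factor Foxq1 in AAV-VEGFC against AAV-GFP (0.68 ± 0.22), neither called (edgeR, adjusted p = 0.909 and 0.948).

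Among 11 tested genes of permeability and endothelial activation, of 12 listed, Plvap was the 1 called in each vector group against BDL. It codes for the diaphragm protein of fenestrated vessels, which mature brain endothelium largely lacks. Of all genes tested, 2.91% were called higher in AAV-VEGFC and 0.988% in AAV-GFP, and 9.93% and 6.19% in either direction. Plvap averaged 2.64 ± 0.394 CPM in AAV-VEGFC, 2.68 ± 0.533 CPM in AAV-GFP, 1.29 ± 0.123 CPM in BDL and 1.95 ± 0.235 CPM in sham libraries (SD, n = 3 each), with log2 fold changes of 1.03 ± 0.21 in AAV-VEGFC and 1.05 ± 0.21 in AAV-GFP against BDL (edgeR, adjusted p = 0.0115 and 0.0132). BDL had the lowest Plvap mean of the 4 groups: its log2 fold change against sham was -0.60 ± 0.21, and that of AAV-VEGFC against sham 0.44 ± 0.21, neither called (edgeR, adjusted p = 0.682 and 0.161). Against sham, AAV-VEGFC had 4 higher and 0 lower, led by Mfsd2a, the lipid transporter that restrains transcytosis (0.84 ± 0.13), Cav1, the coat protein of caveolae (0.65 ± 0.15), and Angpt2, a ligand of Tek (1.15 ± 0.30), with edgeR adjusted p of 0.00198, 0.0129 and 0.0261. The share of all genes called higher there was 7.98%. Mfsd2a had the smallest p in BDL against sham (0.41 ± 0.13) and in AAV-VEGFC against AAV-GFP (0.24 ± 0.13), not called in either (edgeR, adjusted p = 0.596 and 0.948).

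Apold1 is itself an early-response gene, and 16 other such genes were tested, of 17 listed. They, too, were chosen with earlier results of these data known. In AAV-VEGFC against BDL 10 were called higher and 0 lower, with a median log2 fold change of 0.95, and in AAV-GFP against BDL 2 were called higher and 0 lower, with a median of 0.09. Over all genes tested, 2.91% were called higher in AAV-VEGFC and 0.988% in AAV-GFP, with medians of 0.0045 and 0.0074. Atf3, a stress-induced transcription factor, differed by 3.82 ± 0.55 in AAV-VEGFC against BDL, and the flow-responsive factors Klf4 and Klf2 by 1.46 ± 0.24 and 1.199 ± 0.20 (edgeR, adjusted p = 0.00161, 0.00306 and 0.00395). In AAV-GFP against BDL the 2 were the kinase Sgk1 (1.37 ± 0.32) and Klf4 (0.89 ± 0.23), with edgeR adjusted p of 0.0275 and 0.0477. In AAV-VEGFC against AAV-GFP edgeR called 0, with 13 of 16 at an unadjusted p under 0.05, beside 4.37% of all genes, and 15 above 0. The smallest p was that of Cyr61, a secreted matrix protein, with 6.26, 14.5 and 50.1 CPM in AAV-VEGFC libraries against 1.90, 4.16 and 2.89 CPM in AAV-GFP libraries (edgeR, adjusted p = 0.948). In BDL against sham edgeR called 0, with 10 at an unadjusted p under 0.05, beside 5.9% of all genes, and a median of -0.59, and Fosb had the smallest p (-1.11 ± 0.24, edgeR adjusted p = 0.22). Against sham, AAV-VEGFC had 7 higher, led by Ier3 (1.23 ± 0.23), Atf3 (2.63 ± 0.51) and Sgk1 (1.46 ± 0.32), and 3 lower, Egr1 (-1.23 ± 0.27), Nr4a1 (-0.95 ± 0.25) and Fosb (-0.83 ± 0.24), with edgeR adjusted p from 0.0048 to 0.0359. The shares of all genes there were 7.98% higher and 10.6% lower.

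**Figure D5:**
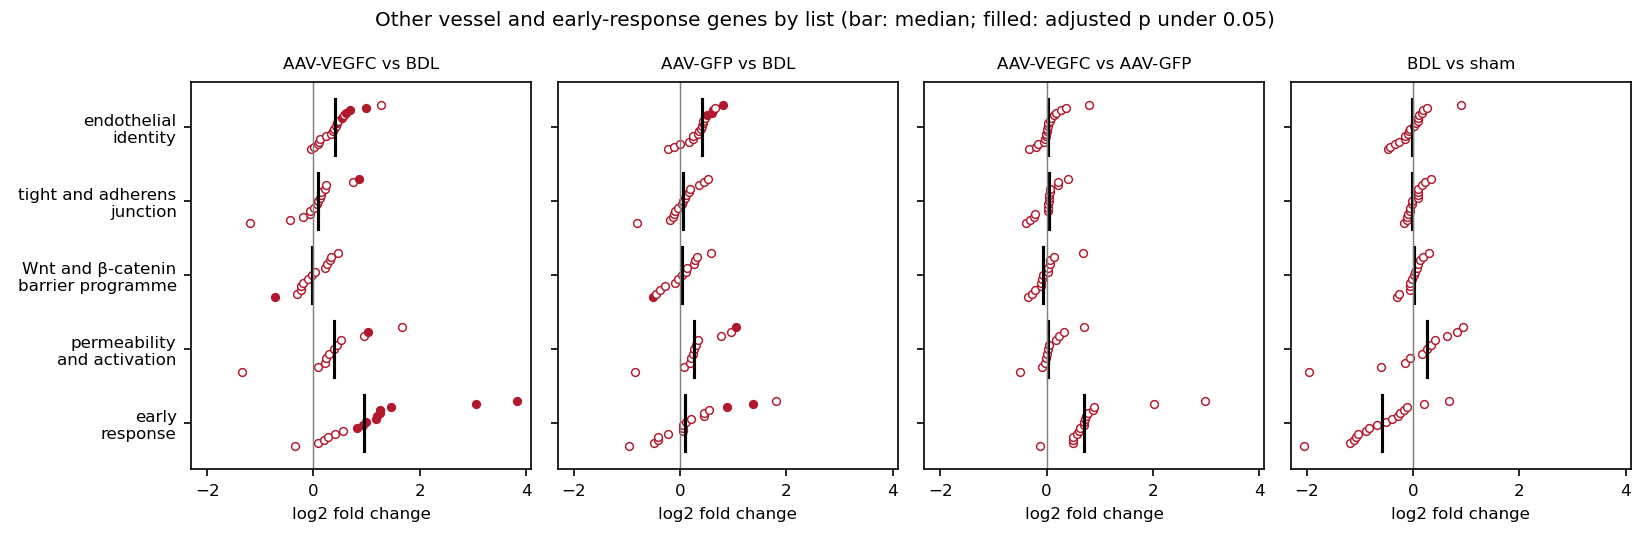
Log2 fold change of every tested gene of the 5 other lists in 4 comparisons, one panel per comparison and one row per list, with each dot a gene, filled where edgeR called it, and a bar at each list's median. The early-response genes lie mostly right of 0 in AAV-VEGFC against AAV-GFP, with a median of 0.70, and mostly left of it in BDL against sham, with a median of -0.59.

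Markers of cells that share these genes, or that lie beside vessels, were summed in each library. The 10 of 10 markers of pericytes and smooth muscle were above 0 in every library, and their sum was 175 to 202 CPM in AAV-VEGFC, 168 to 231 CPM in AAV-GFP, 128 to 171 CPM in BDL and 128 to 148 CPM in sham libraries. The sum of the 10 members was 638 to 651 CPM in AAV-VEGFC, 558 to 597 CPM in AAV-GFP, 403 to 492 CPM in BDL and 401 to 416 CPM in sham libraries. Between the vector groups the largest difference in mean CPM was that of Apold1, an early-response gene, at 115 in AAV-VEGFC and 58.9 in AAV-GFP. Tjp1, made by many cell types, averaged 198 and 205 CPM in these groups. The sum is therefore not a measure of endothelial cells alone. Platelets also carry Vwf, Pecam1 and Esam. The 4 platelet markers in the files, of 6 listed, summed to 0.279 to 0.807 CPM in AAV-VEGFC, 0.870 to 1.56 CPM in AAV-GFP, 0.281 to 0.650 CPM in BDL and 0.235 to 0.510 CPM in sham libraries, with Ppbp at 0 in all 12. Gp9 was at 0 in 10 libraries and Gp1ba in 6, so these low sums rest mainly on Pf4, at 0.235 to 1.31 CPM. The AAV-GFP sums lay above all BDL sums.

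Red cell markers, 5 of 5 found, summed to 947 to 1319 CPM in AAV-VEGFC, 816 to 906 CPM in AAV-GFP, 433 to 863 CPM in BDL and 117 to 158 CPM in sham libraries. The ranges fell in that order, with AAV-GFP and BDL overlapping. Group means of Cldn5, Ocln, Esam, Pecam1, Emcn, Vwf and Tmem252 fell in the same order. The step between the vector groups was small for some, such as 24.2 and 24.1 CPM for Esam, and 0 of 10 members were called there. Other members broke the order. Cdh5 averaged 12.2 CPM in AAV-VEGFC and 12.5 CPM in AAV-GFP, and Apold1 10.2 CPM in BDL and 15.5 CPM in sham libraries. Tjp1 ran the opposite way, from 198 CPM in AAV-VEGFC to 240 CPM in sham libraries. Markers of hypothalamus and pituitary summed to 9.84 to 57.4 CPM in AAV-VEGFC and 1.58 to 85.1 CPM in AAV-GFP, against 1.59 to 2.39 CPM in BDL and 1.13 to 4.16 CPM in sham libraries, with the highest values in AAV-GFP 1 and AAV-VEGFC 3. Choroid plexus markers summed to 14.6 to 29.4, 10.95 to 70.8, 8.63 to 29.6 and 5.55 to 289 CPM in AAV-VEGFC, AAV-GFP, BDL and sham libraries, with the highest value in sham 2. The part of these cells in the results on the members was not tested.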

How the data were processed

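Per the labels, RNA of frozen brain was extracted with Trizol and made into TruSeq libraries from total RNA. Per the submitters' processing notes, FastQC, Trimmomatic 0.36, HISAT2 and featureCounts were used on the rn6 build. Counting settings, annotation and strandedness: not given in the sources used here. Without strand, overlapping and antisense genes cannot be told apart. Raw read counts by symbol were deposited in 12 files: 1 table of all 12 libraries, and 11 single-library files that equal its columns. The table has 17337 rows, of which 26 are named as dates. Columns left unused numbered 0.

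Groups came from the labels' protocol and treatment fields, with 3 libraries each. Chi-square per degree of freedom between libraries of a group was 11.6 to 227, so every pair differed beyond sampling noise. Library totals ran from 40296297 to 51669067 counts.

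edgeR 4.0.16 in R 4.3.3 was used with TMM scaling. After filterByExpr, 12850 genes entered 1 quasi-likelihood fit over the 12 libraries, with each group's mean as a coefficient. Standard errors were obtained as the absolute log2 fold change over the root of F. Adjusted p is Benjamini-Hochberg over all tested genes, called under 0.05. Intervals are at 95%. CPM was computed from the deposited counts with TMM factors. The fit was also run on counts simulated from its own estimates of spread. Such a run checks the code and cannot reflect traits of single libraries. Promoter sequences came from RefSeq.

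The alternatives were DESeq2 1.42.0 size factors, DESeq2's own test, voom with quality weights (limma 3.58.1), no filter, at least 1 CPM in 3 libraries, a fit restricted to the compared groups, a block for replicate number, and leaving out each library. Leaving out sham 2, AAV-GFP 1 and AAV-VEGFC 1 together was added after seeing the data. For each member and comparison this gives 14 alternatives.

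The members, lists and tests were chosen with earlier results of these data known. Named were all members and, from each list and comparison, up to 3 called genes per direction with the smallest p, or the 1 with the smallest p where none was called. One gene so chosen is not reported here. For Cldn5, Apold1 and Tmem252, the 3 genes of most similar pattern with a mean of at least 1 CPM were also named. Figures were drawn with matplotlib 3.10.9.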

Additional observations from a re-analysis of the deposited data

How the results depend on the processing

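Of 700 member values under alternatives, 632 kept their direction and side of the threshold, 20 lost their call, 19 gained one and 29 changed sign. The sign changes were in differences whose interval held 0, in BDL against sham and in AAV-VEGFC against AAV-GFP, and their cause was not tested. In AAV-VEGFC against AAV-GFP, voom with quality weights gave log2 fold changes of -0.063 for Cldn5, -0.075 for Ocln, -0.12 for Esam, 0.050 for Cdh5 and -0.15 for Emcn. Without the 3 libraries that stood apart they were -0.044 for Cldn5, -0.050 for Ocln, -0.11 for Esam, 0.15 for Cdh5 and -0.12 for Emcn. Leaving out 1 library in BDL against sham gave values from -0.043 to 0.18 for Ocln, -0.048 to 0.011 for Tjp1 and -0.015 to 0.20 for Pecam1. Leaving out 1 library in AAV-VEGFC against AAV-GFP gave values from -0.055 to 0.22 for Cldn5, -0.10 to 0.30 for Ocln, -0.12 to 0.0060 for Tjp1, -0.058 to 0.072 for Esam, -0.17 to 0.071 for Cdh5, -0.036 to 0.10 for Pecam1, -0.035 to 0.21 for Emcn and -0.090 to 0.13 for Vwf.

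The replicate numbers are no stated pairing, and deviations of same-numbered libraries correlated between -0.13 and 0.07. With the replicate number as a block, the members called were 0 in BDL against sham, 5 in AAV-GFP against BDL (Emcn lost), 6 in AAV-VEGFC against BDL, 0 in AAV-VEGFC against AAV-GFP and 7 in AAV-VEGFC against sham (Tjp1 lost). The genes called numbered 12, 550, 905, 0 and 1708 in the same order, and Vwf in AAV-VEGFC against AAV-GFP was -0.011.

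The members called in BDL against sham were 2 with DESeq2's test, 2 with voom and 1 in a fit of the compared groups alone, and in AAV-VEGFC against BDL 3 in a fit of the compared groups alone. Leaving out 1 library gave 0 to 0 members in BDL against sham, 4 to 6 in AAV-GFP against BDL, 5 to 7 in AAV-VEGFC against BDL, 0 to 0 in AAV-VEGFC against AAV-GFP and 7 to 9 in AAV-VEGFC against sham. The count of all genes called moved more. In BDL against sham it was 14, against 103 (52 higher, 51 lower) with DESeq2's test, 347 (117 and 230) with voom, 332 (94 and 238) with the groups alone and 209 (63 and 146) without the 3 libraries. In AAV-GFP against BDL it was 795 (127 and 668), against 1435 (417 and 1018), 4687 (2195 and 2492), 2023 (800 and 1223) and 3646 (1637 and 2009) under the same settings, and 386 to 859 leaving out 1 library. In AAV-VEGFC against BDL it was 1276 (374 and 902), against 2315 (1011 and 1304), 2488 (1006 and 1482), 330 (29 and 301) and 3123 (1374 and 1749), and 586 to 2284 leaving out 1 library. In AAV-VEGFC against AAV-GFP it was 1, against 10 with DESeq2's test, 0 with the groups alone and 1193 (625 and 568) without the 3 libraries, and 0 to 22 leaving out 1 library. In AAV-VEGFC against sham it was 2394, against 702 (160 and 542) with the groups alone and 983 to 3205 leaving out 1 library. With 3 libraries a group, small differences of single members are not resolved.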
